A study of Mus musculus with 25 samples.

Results

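Expression of 10 genes of IL-1 family cytokine production was followed across 7 groups of sorted mouse hematopoietic stem cells: Il1b, Il18, Casp1, Casp4, Casp8, Pycard, Nlrp3, Aim2, Gsdmd and Nek7. They were taken by name from knowledge of the inflammasome and matched to the Ensembl IDs of the count table, and 9 of the 10 had a row among its 13641 genes. Nlrp3 (ENSMUSG00000032691, chr11:59541568-59566956), the best known inflammasome sensor, had none and is not analysed here. All 9 were tested.

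The cells were Lin−Sca1+cKit+CD48−CD150+ cells sorted from recipient mice as 25 samples. The mice were engrafted with marrow from donors of 4 genotypes and given tamoxifen 16 weeks later. The controls (WT) are labelled as carrying SclCre and GFP, and the other 3 genotypes added the JAK2 mutant V617F construct, alone (VF), with IL-1b-/- (Il1bKO) or with IL-1R1-/- (Il1r1KO). The SclCre transgene acts in blood stem cells after tamoxifen, so the mutation was induced in the grafted cells of adult mice, while the host tissue was that of the recipients. Mice were killed 2 weeks (4 libraries each of WT_2w, VF_2w, Il1bKO_2w and Il1r1KO_2w) or 4 weeks (3 libraries each of VF_4w, Il1bKO_4w and Il1r1KO_4w) after tamoxifen began, and the 4-week set had no WT. Age and sex of the mice are not given in the sources used here. Whether every sample came from a mouse of its own is not stated sample by sample, so the p-values measure only the spread between samples.

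IL-1β and IL-18 are made as inactive precursors without a signal peptide. A sensor such as NLRP3 or AIM2 gathers the adaptor ASC (gene Pycard) and pro-caspase-1 into an inflammasome, caspase-1 cuts both precursors and gasdermin D, and the gasdermin D fragment opens pores through which the cytokines leave. In textbook accounts the Il1b transcript is scarce in resting cells and is induced by NF-κB, whereas Il18 is made constitutively.

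Promoter windows of 3 of the genes are shown, each 250 bases before to 50 bases after the RefSeq start (GRCm38.p6), because they are the member with the fewest reads (Il1b), the steadiest member (Casp8) and the member that passed a test (Pycard). Capitals mark a TATA box (TATAAA) or a CCAAT box (CCAAT), both searched on both strands.
Il1b (chr2:129371090-129371389, minus strand): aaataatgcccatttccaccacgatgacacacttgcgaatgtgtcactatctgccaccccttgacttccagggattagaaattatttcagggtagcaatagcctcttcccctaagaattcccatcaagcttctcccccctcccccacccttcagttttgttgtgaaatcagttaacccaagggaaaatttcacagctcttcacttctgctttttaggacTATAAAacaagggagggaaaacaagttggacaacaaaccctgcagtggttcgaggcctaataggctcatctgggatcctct
Casp8 (chr1:58802252-58802551, plus strand): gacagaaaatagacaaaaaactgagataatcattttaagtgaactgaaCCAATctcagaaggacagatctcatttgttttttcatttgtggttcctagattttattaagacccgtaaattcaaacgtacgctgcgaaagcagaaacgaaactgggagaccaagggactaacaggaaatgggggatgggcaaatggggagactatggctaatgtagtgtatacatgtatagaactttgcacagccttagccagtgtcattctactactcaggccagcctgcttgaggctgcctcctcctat
Pycard (chr7:127993818-127994117, minus strand): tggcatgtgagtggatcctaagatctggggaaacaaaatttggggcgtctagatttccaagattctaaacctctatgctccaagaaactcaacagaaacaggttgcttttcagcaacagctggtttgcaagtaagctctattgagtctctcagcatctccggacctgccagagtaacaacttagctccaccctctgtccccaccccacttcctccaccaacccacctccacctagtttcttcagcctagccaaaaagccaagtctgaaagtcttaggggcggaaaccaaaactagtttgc
Il1b had TATAAA beginning 31 bases upstream of its start, Casp8 had CCAAT 202 bases upstream, and the Pycard window held neither. RefSeq windows were matched for 8 members, 9 windows in all since Casp4 has 2 starts. In them, TATAAA was found in 2 (Il1b and Il18) and CCAAT in 3 (Casp8, Aim2 and Il18), against 13.6% and 37.4% of 32851 promoter windows. The STAT palindrome TTCNNNGAA was found in 0 of these 9 against 8.3% of all windows. A match is a description of these letters and not a binding site.

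Library totals ran from 21990959 to 40178173 counts, with 11871 to 13491 genes detected. The fewest genes came from the library with the most counts, Il1bKO_4w 5 (library 5 of its group), whose median correlation with the others was 0.894 against 0.946 or more for each of the other 24. The human JAK2 construct was at 39.1 CPM (read counts scaled to the library size) or more in the 21 mutant libraries and at 0.733 or less in WT. CreERT2 was at 195 or more in the mutants but at most at 0.0365 in the libraries labelled WT, although their label has SclCre. In WT, pEGFP ran from 3.03 to 998 CPM. The JAK2 construct was higher in every Il1r1KO than every VF library: 140 to 218 against 99.7 to 130 CPM over earlier exons. Over later exons it was at 81.6 to 115 against 39.1 to 60.8, and pEGFP was higher there too, without overlap. CreERT2 was higher in Il1bKO (445 to 828) than in VF (195 to 388). The other construct ranges of the knockouts overlapped with VF. The part of these levels in the knockout comparisons was not tested. All 12 stem cell markers checked, such as Procr, Hlf and Mecom, were in the table, with a summed level of 2140 to 4627 CPM. Among markers of other cells, 15 of 20 neutrophil and monocyte genes, 9 of 14 macrophage and dendritic genes (Adgre1, C1qa, C1qb, C1qc and Itgax had no row), all 8 megakaryocyte genes, all 8 erythroid genes, 3 of 8 B lineage genes and 2 of 8 T and NK genes were present. In bulk samples, fewer cells of a type and less RNA per cell cannot be told apart.

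Of the 9 members with a row, which leaves out Nlrp3, all but Il1b were well expressed in these cells. On a per-length scale (RPKM, reads scaled by exon length and library size, mean and SD over the 25 libraries), the order was Casp1 at 70.7 (10.4), Casp8 at 58.1 (4.46), Gsdmd at 39.2 (8.20), Il18 at 25.3 (7.57) and Pycard at 22.5 (3.19). Nek7 at 16.4 (2.49), Casp4 at 13.5 (3.22) and Aim2 at 11.2 (2.86) followed, and these 8 all lay above the median gene at 8.25. Il1b was far below at 0.549 (1.503), in place 12057 of 13604 genes with a length, whereas Casp1 stood in place 775. Neighbours in the order separated well at most steps: Casp1 lay above Casp8 in 24 of 25 libraries, Casp8 above Gsdmd in 25, Gsdmd above Il18 in 23 and Pycard above Nek7 in 24. Il18 and Pycard were not cleanly ordered, Il18 lying higher in 16 of 25 libraries. Nek7 exceeded Casp4 in 20 and Casp4 exceeded Aim2 in 17. Aim2 exceeded Il1b in all 25.

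The members differed in steadiness. Casp8, the protease that joins death receptors to apoptosis and can also cut the IL-1β precursor, had a coefficient of variation of 7.68% over all 25 libraries and a highest to lowest ratio of 1.37. Pycard (14.2%), Casp1 (14.7%) and Nek7 (15.2%), a kinase that NLRP3 needs for assembly, came next. Gsdmd (20.9%), Casp4 (23.9%), Aim2 (25.5%) and Il18 (29.9%) varied more, against a median of 18.2% for genes with a mean of at least 20 CPM. Library Il1bKO_4w 5 held the highest value of 4 of these 8 genes (Il18, Casp4, Gsdmd and Nek7), and without it their coefficients were 27.4%, 21.2%, 19.3% and 13.5%.

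**Figure D1:**
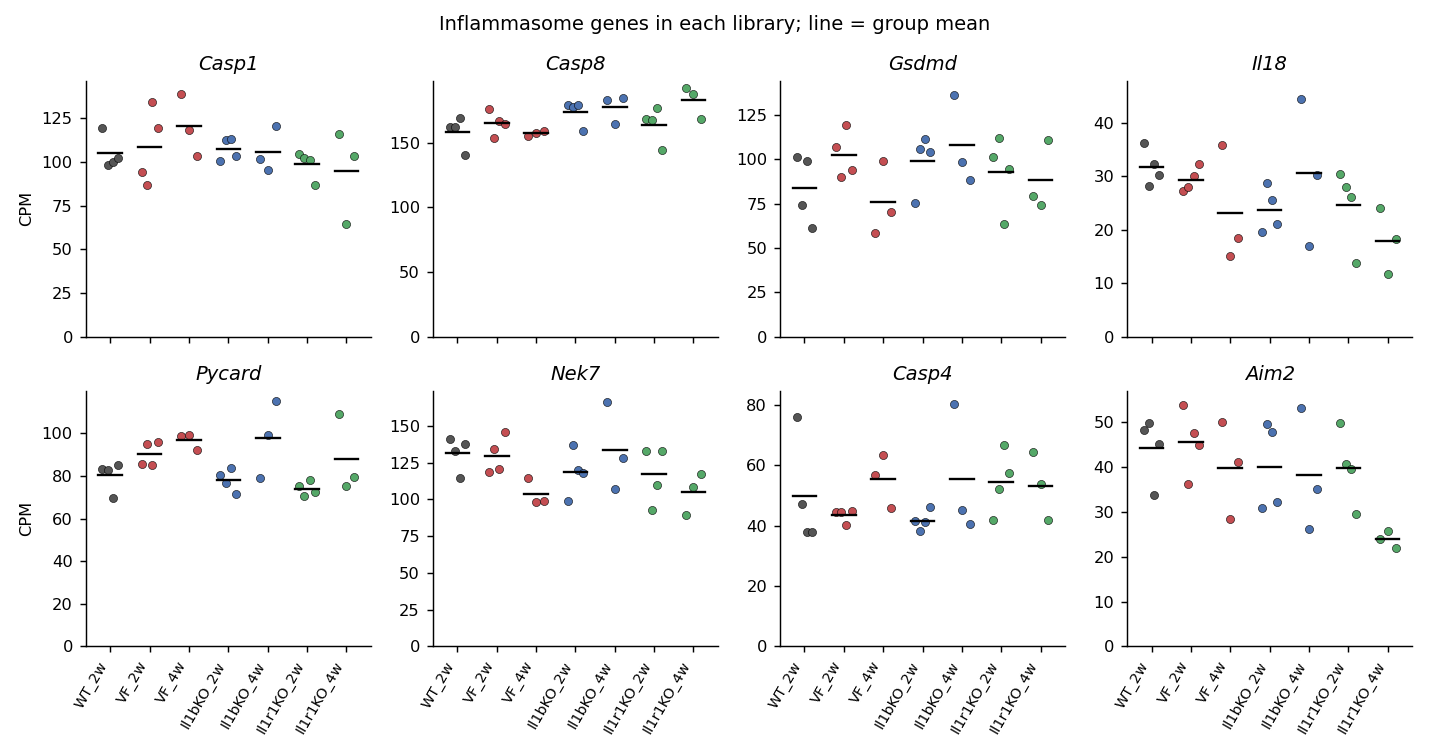
CPM (vertical axis, from 0) of the 8 inflammasome genes other than Il1b in every library, by group on the horizontal axis; points are libraries and lines are group means. Casp8 stays between 141 and 193 CPM in all libraries, Aim2 is lowest in Il1r1KO_4w and Il18 spans 11.7 to 44.6.

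Il1b (ENSMUSG00000027398, chr2:129364570-129371139), the cytokine that the IL-1b-/- genotype lacks, had 0 reads in all 7 libraries of Il1bKO and few elsewhere. WT_2w had 0, 4, 0 and 0 reads. VF_2w had 0, 30, 4 and 6 reads, and VF_4w had 19, 391 and 1. Thus VF_4w 6 alone held 86.7% of the 451 VF reads, and 1 of 4 WT libraries had any read. Il1r1KO_2w had 16, 0, 17 and 32 reads and Il1r1KO_4w had 84, 46 and 55. Of the 18 libraries that were not Il1bKO, 13 had at least 1 read. Reads may be shared with Il1bos, an antisense gene that overlaps 25 exonic bases, since the libraries are unstranded.

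In CPM, Il1b gave 0.0346 (SD 0.0693, n = 4) in WT_2w, 0.341 (SD 0.412, n = 4) in VF_2w, 4.96 (SD 7.96, n = 3) in VF_4w, 0.562 (SD 0.423, n = 4) in Il1r1KO_2w and 2.50 (SD 1.1003, n = 3) in Il1r1KO_4w. The SD exceeded the mean in WT_2w and both VF groups. The 3 Il1r1KO_4w libraries (3.75, 1.66 and 2.10 CPM) all lay above the 4 of Il1r1KO_2w (highest 1.02). Il1b and Aim2 were 2 of the 9 members whose ranges did not overlap between these groups, against 16.7% of all genes. The 2 times were processed as 2 batches, so time and batch cannot be told apart.

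**Figure D2:**
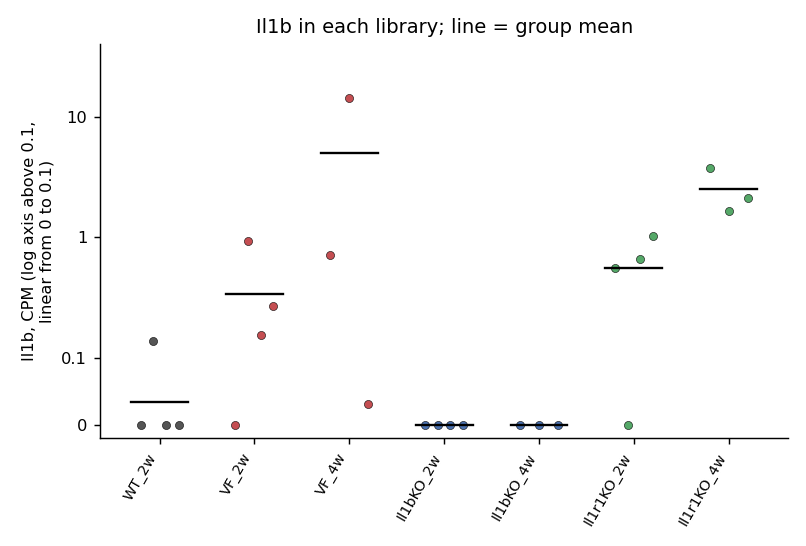
Il1b CPM (vertical axis, logarithmic above 0.1 and linear from 0 to 0.1) in every library by group; points are libraries and lines are group means. All 7 Il1bKO libraries lie at 0, VF_4w 6 stands at 14.1 CPM and the 3 Il1r1KO_4w libraries lie between 1.66 and 3.75.

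The first comparison on Il1b asked whether the deletion label holds. A count of 0 in 212228402 counts allows up to 0.0140 CPM over the 7 Il1bKO libraries (3 counts over the group, counting error only). Pooled VF libraries (2.34 CPM) were at least 167-fold higher than this floor, at least 25.9-fold higher without VF_4w 6, and pooled Il1r1KO libraries (1.32 CPM) were at least 93.8-fold higher. An exact two-sided permutation of genotype within time compared Il1bKO with VF (n = 7 and 7, 1400 relabellings). The mean difference in log2(CPM + 0.5) was -1.36, with p = 0.00714 in that exact test. All Il1bKO libraries were at 0, so no relabelling gives a larger difference, and this p is the smallest that these values allow. Without VF_4w 6 the difference was -0.66, with the same p in an exact test of 700 relabellings. The zeros set that p, so it does not show how far the difference rests on VF_4w 6. The difference had p = 0.0857 in the exact test when any 1 of the 3 Il1bKO_4w libraries was left out. Across all genes, edgeR's quasi-likelihood test gave Il1b an unadjusted p of 1.9e-04 (place 26 of 13630), which did not pass after Benjamini-Hochberg adjustment (adjusted p = 0.0998). Against Il1r1KO it missed likewise (adjusted p = 0.0674). DESeq2 called it in both comparisons (adjusted p = 1.3e-04 and 1.6e-04). With single libraries left out edgeR called it against VF without VF_4w 7 (adjusted p = 0.0468) and against Il1r1KO without Il1r1KO_2w 2 (adjusted p = 0.0478).

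No difference of Il1b passed between groups with reads, and single libraries moved their size. VF against WT at 2 weeks gave log2 3.13 (SE 1.73, 95% interval -0.52 to 6.78, adjusted p = 0.9998 in edgeR). It was 1.87 without VF_2w 2 and 6.30 without WT_2w 2, where all WT libraries are at 0 and the value depends on the prior count. Il1r1KO against WT at 2 weeks gave 3.84 (SE 1.76, interval 0.13 to 7.54, adjusted p = 0.824 in edgeR), an interval that leaves out 0 before adjustment, and 7.001 without WT_2w 2, with the same limit. Il1r1KO against VF over both times gave -0.14 (SE 1.15, interval -2.57 to 2.28, adjusted p = 0.982), and -0.99 (SE 1.70) at 4 weeks. The sign of both turned without VF_4w 6 (1.72 and 2.73), with limma voom (2.43 and 3.67) and with the replicate number as a block (1.79 and 1.64). The value over both times also turned without VF_2w 2 (0.49) and without Il1r1KO_2w 2 (0.06), so no direction is given. The intervals are wide, so at these read numbers differences within them were not detectable. Fitted differences against groups at 0 depend on the prior count and are not given.

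The library with the most Il1b, VF_4w 6, also stood apart in marker genes. It had the highest summed level of the 8 megakaryocyte genes of all libraries (2559 CPM, others 353 to 1410) and of the 9 macrophage and dendritic genes (2142 CPM, others 197 to 686). Within these lists Pf4, a platelet chemokine, was at 1073 CPM against a median of 71.4 in the other 24 libraries, Itga2b at 690 against 162, and the MHC class II pathway genes Cd74 at 1089 against 117 and H2-Ab1 at 561 against 65.4. The macrophage and dendritic sum was nearly all Cd74, H2-Ab1 and H2-Aa (469 CPM), while 3 genes of that list lay below the median of the others, Cd68 at 5.71 CPM against 16.4, Flt3 at 15.0 against 22.5 and Mertk at 0 against 2.12. Siglech was at 0. Of the 8 megakaryocyte genes, 7 lay above the median of the other libraries and Gp6 was at 0. Of the 12 stem cell markers, 9 lay below that median, among them Mllt3 (75.7 CPM against 197, the lowest of all libraries), Procr (43.2 against 93.5), Mecom (146 against 296) and Fgd5 (12.4 against 47.8), whereas Ly6a, which encodes Sca1, was the highest of all at 444 against 171. Its neutrophil and monocyte sum was the lowest (443 CPM, others 514 to 940). Megakaryocyte sums in the Il1r1KO libraries were 375 to 1410 CPM (median 1126), against 437 to 705 in WT, 373 to 2559 (median 640) in VF and 353 to 978 in Il1bKO. The part of these cells in the Il1b reads was not tested. Without VF_4w 6, VF held 60 reads.

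**Figure D3:**
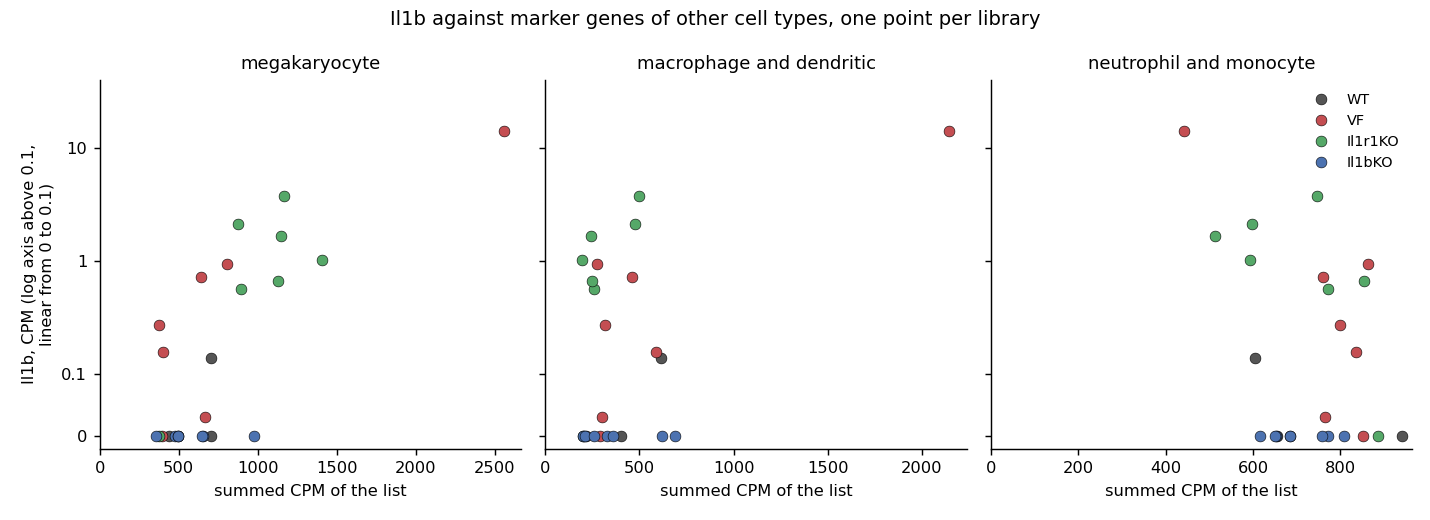
Il1b CPM (vertical axis, logarithmic above 0.1 and linear below) against the summed CPM of 3 marker lists (horizontal axes), 1 point per library, coloured by genotype. VF_4w 6 lies highest for the megakaryocyte (2559 CPM) and the macrophage and dendritic list (2142 CPM) and lowest for the neutrophil and monocyte list (443 CPM).

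The genes whose CPM followed Il1b most closely over the 18 libraries other than Il1bKO were sought among 12655 genes with a mean of at least 1 CPM. They were Got1 (Spearman rho 0.915), an aspartate aminotransferase, Gp1bb (0.890), a subunit of the platelet von Willebrand factor receptor, Gm49601 (0.890), Sept5 (0.885), a septin, and Lgals9 (0.881), which encodes galectin-9. Gp1bb, Gm49601 and Sept5 had nearly equal CPM (means 24.2, 24.2 and 24.8) and may count the same reads. Without VF_4w 6 these values were 0.861 to 0.901. They are the top of a ranked list and were not tested.

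Il18 (ENSMUSG00000039217, chr9:50554827-50581840), the second cytokine that caspase-1 cuts, was present in every library. Its values were 36.2, 28.3, 32.3 and 30.2 CPM in WT_2w, and 27.2, 28.0, 30.0 and 32.3 in VF_2w. VF_4w had 35.8, 15.1 and 18.4, Il1bKO_2w had 19.5, 28.7, 25.6 and 21.04, and Il1bKO_4w had 44.6, 16.9 and 30.2. Il1r1KO_2w had 30.5, 28.0, 26.1 and 13.8, and Il1r1KO_4w had 24.1, 11.7 and 18.2. WT_2w and VF_2w were tight, whereas the 4-week groups spread more widely, and groups of the same time overlapped. Il1r1KO against VF gave log2 -0.31 (SE 0.22, adjusted p = 0.654, edgeR), so a difference was not shown, with an interval of -0.77 to 0.16.

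Il1r1 (the signalling receptor, whose whole-gene counts do not show which exons remain) gave 15.0 (SD 6.11) CPM in WT_2w, and over both times 22.2 (SD 8.14) in Il1r1KO, 15.8 (SD 6.02) in VF and 13.0 (SD 6.97) in Il1bKO. Its co-receptor Il1rap was at 27.1 (SD 7.06) CPM in Il1r1KO, at 36.2 (SD 9.63) in Il1bKO and at 32.3 (SD 7.10) in VF. Il18bp, the secreted decoy for IL-18, gave 52.9 (SD 33.6) CPM in VF_4w, where VF_4w 6 was at 91.6, and 28.4 to 35.8 as means of the other groups. None of the 3 passed in a comparison (edgeR). Il1a and Il1rn, the other ligand and the receptor antagonist, had no row and are not analysed here.

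Pycard (ENSMUSG00000030793, chr7:127989708-127993867), the ASC adaptor, was highest at 2 weeks in VF. WT_2w had 83.3, 82.9, 69.4 and 85.2 CPM, VF_2w had 85.7, 94.8, 85.2 and 95.8, Il1bKO_2w had 80.6, 76.5, 83.8 and 71.6 and Il1r1KO_2w had 75.1, 70.4, 77.9 and 72.7. All 4 VF_2w libraries lay above the 12 others of that time, a pattern shared by 0.066% of all genes (9 of 13641). It was noticed after the values were seen and is not a test. The margin was 0.0112 CPM, VF_2w 3 against WT_2w 4, and with median-ratio size factors it was -0.0995, so the pattern against WT does not hold there. Against each group separately, Pycard was 1 of 9 members with no overlap for WT_2w (3.67% of all genes did not overlap), for Il1bKO_2w (3.64%) and for Il1r1KO_2w (4.01%), 3 comparisons that share the VF_2w libraries.

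The fitted differences of Pycard were small and did not pass. VF against WT at 2 weeks gave log2 0.17 (SE 0.12), Il1bKO against VF at 2 weeks -0.21 (SE 0.12) and Il1r1KO against VF at 2 weeks -0.29 (SE 0.12), with adjusted p of 0.9998, 0.9999 and 0.9999 in edgeR. Over both times Il1r1KO against VF gave -0.21 (SE 0.09, adjusted p = 0.372 in edgeR). limma voom called that difference (-0.27, adjusted p = 0.0340), as did edgeR without VF_4w 6, Il1bKO_4w 5 and Il1r1KO_4w 5 (-0.29, adjusted p = 0.0406), a setting chosen after seeing the data. At 4 weeks the groups overlapped: VF_4w had 98.8, 99.3 and 91.9 CPM, Il1bKO_4w had 78.8, 99.2 and 115 and Il1r1KO_4w had 109, 75.4 and 79.4. The gene shares 485 exonic bases with the antisense Gm45205, whose reads cannot be told apart in unstranded libraries.

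Pycard was the 1 member that passed in any comparison. In the mutant genotypes it was higher at 4 weeks (94.1 CPM, SD 13.9, n = 9) than at 2 weeks (80.8, SD 8.47, n = 12), with log2 0.22 (SE 0.07, adjusted p = 0.0448, edgeR). That was 1 of 9 members against 14.4% of all genes called in this comparison, and the 2 sets of libraries overlapped. The call was marginal. It was lost with RLE size factors (adjusted p = 0.0503), upper-quartile factors (0.0891) and a fit of the groups compared alone (0.0559), and leaving out 1 library ended it for 16 of the 21 libraries, with adjusted p from 0.0114 to 0.117 (edgeR). In the same comparison 1 of 82 tested pathway genes was called higher and 5 lower, against 14.4% of all genes called. Nothing about the pathway is read from these counts, and time and batch cannot be told apart here. The gene that rose was Brcc3 (log2 0.27, adjusted p = 0.0347, edgeR), part of a complex that removes ubiquitin from NLRP3. The 5 that fell were Nfkbiz (log2 -1.36, adjusted p = 2.9e-04), an NF-κB cofactor, Txnip (log2 -0.61), a thioredoxin inhibitor linked to NLRP3, Cebpb (-0.57), a transcription factor of the Il1b gene, Ctsb (-0.25), a lysosomal protease, and Sigirr (-0.20), an inhibitory receptor of the IL-1 family, with adjusted p of 0.00215 for Txnip to 0.0498 for Sigirr (edgeR).

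Aim2 (ENSMUSG00000037860, chr1:173350879-173466040), the sensor of cytosolic DNA, was lowest in Il1r1KO at 4 weeks. VF_4w had 49.8, 28.4 and 41.1 CPM, Il1bKO_4w had 53.0, 26.1 and 35.1, and Il1r1KO_4w had 24.0, 25.7 and 21.9. At 2 weeks the values were 48.1, 49.7, 33.7 and 45.0 in WT_2w, 53.7, 36.2, 47.4 and 44.9 in VF_2w, 30.7, 49.5, 47.7 and 32.0 in Il1bKO_2w and 49.7, 40.5, 39.4 and 29.6 in Il1r1KO_2w. The 3 Il1r1KO_4w libraries were the lowest of all 25, which held for 0.396% of all genes, by a margin of 0.401 CPM to Il1bKO_4w 6. This too was noticed in the values. Il1r1KO against VF at 4 weeks gave log2 -0.74 (SE 0.26, adjusted p = 0.247) and over both times -0.47 (SE 0.17, adjusted p = 0.313), neither passing in edgeR. The difference between the 4-week and 2-week effects was -0.54 (SE 0.34, adjusted p = 0.949). In the mutants at 4 against 2 weeks Aim2 gave -0.33 (SE 0.14, adjusted p = 0.113), and -0.44 (adjusted p = 0.0260) without Il1bKO_4w 5, where edgeR called it.

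Casp8 (ENSMUSG00000026029, chr1:58795374-58847503) lay in a narrow band in VF at 4 weeks. VF_4w had 155, 158 and 159 CPM, all below Il1bKO_4w with 183, 165 and 185 and Il1r1KO_4w with 193, 188 and 168. This order held in 1.42% of all genes and under TMM, total-count and median-ratio scaling, with a margin of 6.12 CPM under TMM. Like those of Pycard and Aim2, it was noticed after the values were seen and is not a test. The fitted differences did not pass: Il1bKO against VF at 4 weeks gave log2 0.17 (SE 0.09, adjusted p = 0.392) and Il1r1KO against VF 0.22 (SE 0.09, adjusted p = 0.339) in edgeR. At 4 weeks, Casp8 and Il1b were the 2 of 9 members without overlap between VF and Il1bKO (background 13%), and Casp8 and Aim2 those between VF and Il1r1KO (background 13.1%). At 2 weeks VF_2w (154 to 177) overlapped with every other group.

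Casp8 lies 18.5 Mb from Il1r1, the targeted gene of Il1r1KO, on chromosome 1. Of the members, Casp8 was the one with called neighbours within 500 kb in genotype comparisons. Over both times, Trak2 (chr1:58900449-58973430), a mitochondrial transport adaptor 52.9 kb from Casp8, was lower in Il1r1KO at 30.6 (SD 6.07) CPM than in VF at 61.5 (SD 5.21), a log2 difference of -1.05 (SE 0.10) with an adjusted p of 4.4e-06 in edgeR. Mpp4 (chr1:59120935-59163389), a scaffold protein known from the retina, was also lower there, at 3.02 (SD 0.712) CPM against 7.34 (SD 2.26), a log2 difference of -1.22 (SE 0.25) with an adjusted p of 0.0471 in edgeR. Trak2 passed against VF at each time alone, with log2 -0.82 at 2 weeks (adjusted p = 0.0149) and -1.29 at 4 weeks (adjusted p = 2.3e-04, edgeR). In Il1bKO against Il1r1KO over both times, Trak2 gave 1.07 (adjusted p = 3.4e-06) and Mpp4 gave 1.52 (adjusted p = 0.00635, edgeR). Against WT at 2 weeks, 0 of 14 tested neighbours of Casp8 were called in Il1r1KO (edgeR). Casp8 itself gave 0.10 in Il1r1KO against VF (SE 0.06, adjusted p = 0.561), and Cflar, its inhibitory homologue next door, gave -0.22 (SE 0.11, adjusted p = 0.451). In the comparison of times, 10 of 123 different genes tested within 500 kb of a member were called (8.13%, against 14.4% of all genes), and nothing about the members is read from that share. They lay near 6 members: Ckap2l near Il1b, Sdhd near Il18, Ndufb3, Clk1 and Orc2 near Casp8, Ifi209 near Aim2, Cyc1, Eef1d and Tsta3 near Gsdmd, and Ptprc near Nek7.

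**Figure D4:**
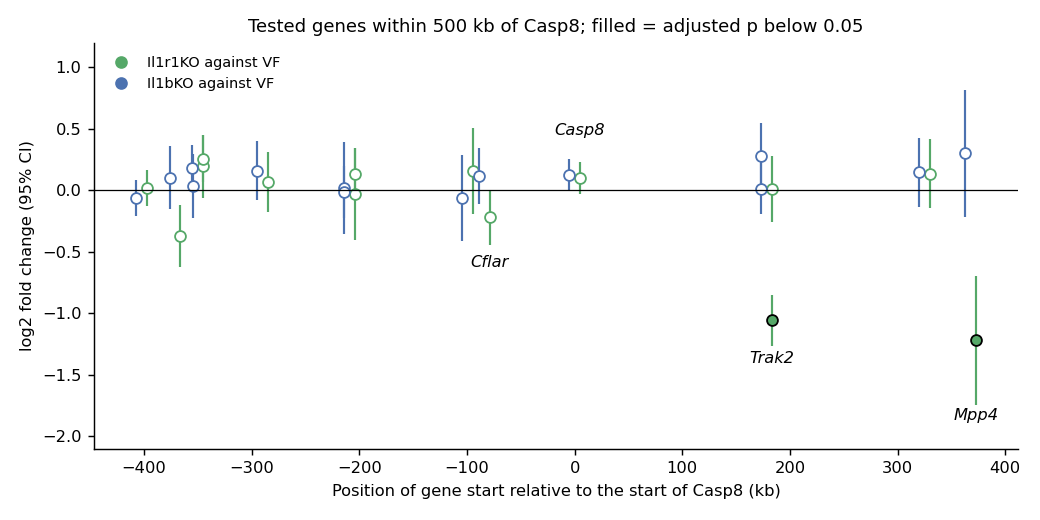
Fitted log2 fold change (vertical axis, with 95% confidence interval) of tested genes within 500 kb of Casp8 against the position of their start relative to that of Casp8 in kb, for Il1r1KO (green) and Il1bKO (blue) against VF over both times; filled points passed the adjusted threshold. Trak2 and Mpp4 are filled in Il1r1KO, while Casp8 lies at 0.10 and 0.12 in Il1r1KO and Il1bKO.

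The caspases and effectors showed no called difference. Casp1 (ENSMUSG00000025888, chr9:5298517-5307265), the enzyme of the canonical inflammasome, ranged from 64.3 to 139 CPM, both at 4 weeks (Il1r1KO_4w 6 and VF_4w 5). Group means were 105 (SD 9.70) in WT_2w, 109 (SD 22.2) in VF_2w, 120 (SD 17.7) in VF_4w, 107 (SD 6.34) in Il1bKO_2w, 106 (SD 13.2) in Il1bKO_4w, 98.7 (SD 8.01) in Il1r1KO_2w and 94.7 (SD 27.1) in Il1r1KO_4w. Il1r1KO against VF gave log2 -0.24 (SE 0.12, adjusted p = 0.438, edgeR). The VF and Il1r1KO ranges overlapped at both times.

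Casp4 (ENSMUSG00000033538, chr9:5308828-5336783), known in mice as caspase-11 and a receptor of cytosolic lipopolysaccharide, ranged from 37.9 (WT_2w 4) to 80.4 CPM (Il1bKO_4w 5). VF_2w was at 44.6, 44.6, 40.3 and 45.0 and VF_4w at 56.9, 63.5 and 45.8, without overlap. Nek7 (ENSMUSG00000026393, chr1:138482875-138620141) was the other member without overlap between these groups, at 119, 134, 121 and 146 CPM in VF_2w against 114, 98.2 and 99.1 in VF_4w. They were 2 of 9 members, against 14.4% of all genes. Casp4 over the mutant genotypes gave log2 0.24 (SE 0.14, adjusted p = 0.253) and Nek7 -0.10 (SE 0.09, adjusted p = 0.467) in edgeR. In Il1bKO none of the 9 members separated 2 from 4 weeks, against 15.8% of all genes. Nek7 shares 118 exonic bases with Gm28501.

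Gsdmd (ENSMUSG00000022575, chr15:75862327-75867408), the pore former, was 101, 74.3, 99.1 and 61.2 CPM in WT_2w and 107, 89.8, 119 and 94.2 in VF_2w, and the ranges overlapped. At 4 weeks VF_4w had 58.4, 99.1 and 70.4, Il1bKO_4w had 136, 98.7 and 88.5 and Il1r1KO_4w had 79.4, 74.2 and 111. Il1bKO against VF at 4 weeks gave log2 0.51 (SE 0.24, adjusted p = 0.325) for Gsdmd and 0.36 (SE 0.16, adjusted p = 0.297) for Nek7 in edgeR. Both genes were highest in Il1bKO_4w 5, the library that stands apart, at 136 and 166 CPM.

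Set against the whole table, the members gave 0 calls in all genotype comparisons by edgeR's quasi-likelihood test with Benjamini-Hochberg adjustment. Of all genes, 0.00734% were called in VF against WT, 0.139% in Il1bKO against VF over both times, 0.00734% at 2 weeks and 0.125% at 4 weeks. For Il1r1KO against VF the shares were 0.169%, 0.0514% at 2 weeks and 0.147% at 4 weeks. Il1bKO against Il1r1KO called 0.176%, Il1bKO against WT 0.044% and Il1r1KO against WT 0.0587%. The 4-week minus 2-week differences of the 2 knockout effects called 0.0147% for Il1bKO and 0% for Il1r1KO. With so few genes called, a count of 0 among 9 is near the background and is not a result about the members. Without adjustment, the 8 members other than Il1b had p below 0.05 in 0 cases in VF against WT, 0 in Il1bKO against VF over both times and 2 (Pycard and Aim2) in Il1r1KO against VF, where 11.4% of all genes did. For Il1b it was below 0.05 in Il1bKO against VF.

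Medians of the 8 members other than Il1b lay near 0. In VF against WT 5 were higher and 3 lower, with a median log2 of 0.05 against 0.00 for all genes. Without WT_2w 3 and WT_2w 4, the controls with the least pEGFP, 3 were higher and 5 lower (median -0.04), and Casp4 went from -0.19 to -0.50, a setting chosen after seeing the data. Over both times, Il1bKO against VF gave 4 higher and 4 lower (median 0.01, all genes -0.01). The 2 times differed in sign, with 1 higher and 7 lower at 2 weeks (median -0.10) and 6 higher and 2 lower at 4 weeks (median 0.09). Il1r1KO against VF gave 3 higher and 5 lower over both times (median -0.14, all genes 0.00). At 2 weeks it gave 1 higher and 7 lower (median -0.145), and at 4 weeks 3 higher and 5 lower (median -0.10). The comparisons of Il1bKO and Il1r1KO with VF share their VF libraries. Between the knockouts 7 of 8 were higher in Il1bKO, with a median of 0.16 against -0.02 for all genes, led by Il18 at 0.36 (SE 0.22, adjusted p = 0.482) and Aim2 at 0.34 (SE 0.17, adjusted p = 0.371, edgeR). The library that stands apart, Il1bKO_4w 5, held the highest value of Il18, Casp4, Gsdmd and Nek7. Over the settings tried Il18 ran from 0.17 to 0.50, Gsdmd from 0.06 to 0.29 and Nek7 from 0.04 to 0.25. Half-widths of the 95% intervals in VF against WT ran from 0.17 (Casp8) to 0.61 (Il18) log2 units, and no interval of the 8 reached beyond 1.64-fold. In Il1bKO against VF over both times none reached beyond 1.47-fold, and in Il1r1KO against VF none beyond 1.77-fold.

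**Figure D5:**
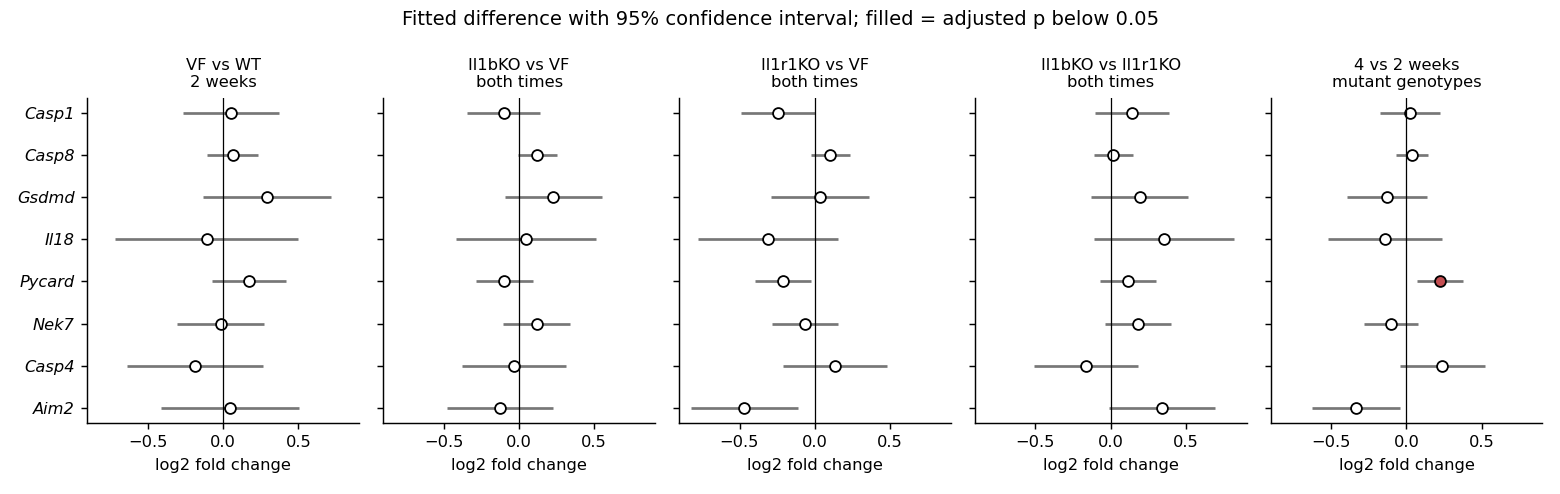
Fitted log2 fold change (horizontal axes) with 95% confidence interval of the 8 members other than Il1b in 5 comparisons; filled points passed the adjusted threshold of 0.05. Only Pycard at 4 against 2 weeks is filled among the 40 differences, and Il18 has the widest interval in each panel.

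The other genes of the pathway were listed by role. Of 101 listed genes (receptors, sensors, regulators, caspases, gasdermins, caspase-8 partners, priming factors and proteases) 82 were in the table and tested, and 0 passed in each genotype comparison (edgeR). At most 0.176% of all genes were called in any of these comparisons, so 0 of 82 is near the background and is not a result about the pathway. Without adjustment, p was below 0.05 for 2 of 82 in VF against WT (310 of all 13630 genes), for 3 in Il1bKO against VF (1278 genes) and for 16 in Il1r1KO against VF (1553 genes). The median log2 of the 82 was -0.04, -0.04 and -0.10 in these comparisons.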

How the data were processed

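Gene-level read counts of 25 polyA RNA libraries (PicoPure RNA, SMART-Seq v4, unstranded, per the labels' protocols) were used as deposited by the authors. FastQC 0.11.5, featureCounts, STAR 2.7.10a and R 4.2.2, with the build mm10, are named by the submitters' processing notes; the version and annotation of featureCounts are not given in the sources used here. Members were matched by symbol to Ensembl IDs with GENCODE vM21 (13604 of 13641 genes matched), which also gave positions and union exon lengths. The 4 construct rows were left out of tests.

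The test was edgeR 4.0.16 under R 4.3.3 (robust quasi-likelihood, TMM, filterByExpr) in 1 fit of 7 groups, on 13630 genes, with Benjamini-Hochberg adjustment at 0.05 over all of them. CPM use TMM-scaled library sizes. SE and 95% intervals were set to match the test's p. Differences over both times are means of the within-time differences. The pipeline was tested on simulated data.

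Members and gene lists were chosen with earlier results of these data known. Named genes were the members, Il1r1, Il1a, Il1rn, Il1rap and Il18bp, called pathway genes, called neighbours within 500 kb and the 5 genes most like Il1b; 1 called neighbour of Casp8 is not reported here or plotted. Cflar and the marker genes of VF_4w 6 were named after their values were seen. Other settings tried were DESeq2 1.42.0, voom of limma 3.58.1 with sample quality weights, size factors by RLE or upper quartile, a fit of only the groups compared, a blocking term for replicate number, every library omitted in turn, 2 settings added after seeing the data (without WT_2w 3 and WT_2w 4, and without VF_4w 6, Il1bKO_4w 5 and Il1r1KO_4w 5), and either no filter or one asking for CPM 5 in 3 libraries. Il1b was also tested by exact permutation within time. Counting error alone is covered by the floors of 3 counts.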

Additional observations from a re-analysis of the deposited data

Results flagged for a closer look

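Of 35 groups of 4 libraries examined (member by group), 4 had a library set apart from its 3 replicates by Dixon's criterion, where chance gives about 1 in 20. Il1b was at 0.139 CPM (4 reads) in WT_2w 2 and at 0 in the other WT libraries. With the others at 0 any read is flagged, so the rate of 1 in 20 does not apply to this flag. Casp4 was at 40.3 CPM in VF_2w 3 against 44.6 to 45.0 in its replicates. Casp8 was at 159.5 CPM in Il1bKO_2w 4 against 178 to 180 in its replicates. Pycard was at 69.4 CPM in WT_2w 3 against 82.9 to 85.2 in the others.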

How the results depend on the processing

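Of 118 member results, 2447 values were computed under an alternative but only 2 of the results passed their test to begin with (Pycard at 4 against 2 weeks and the permutation of Il1b). No alternative turned the sign of these 2, and 22 values of them no longer passed. Of the results not called, 8 values passed under an alternative, 76 moved by more than the spread and 100 had the opposite sign. The number of members called in Il1bKO against VF over both times was 0, but 1 (Il1b) with DESeq2, and 0 to 1 when single libraries were left out (1 without VF_4w 7). At 4 weeks it was 1 (Il1b) with DESeq2. In Il1r1KO against VF it was 1 (Pycard) with limma voom and 1 without VF_4w 6, Il1bKO_4w 5 and Il1r1KO_4w 5, a setting added after seeing the data. Between the knockouts it was 1 (Il1b) with DESeq2 and 0 to 1 with single libraries left out (1 without Il1r1KO_2w 2). In 4 against 2 weeks the 1 call was 0 with RLE, 0 with upper-quartile factors and 0 with the groups compared alone, and 0 to 2 with single libraries left out (2, with Aim2, without Il1bKO_4w 5). The cause was not tested. The permutation difference of Il1b ran from -1.86 to -0.66 with single libraries left out.

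Counts of all genes called are given with their range over the settings other than single libraries left out, including the 2 settings added after seeing the data, which drop 2 and 3 libraries. VF against WT gave 1, with a range of 1 to 8. Il1bKO against VF gave 19 (13 to 100, the highest with DESeq2) over both times, 1 (0 to 15) at 2 weeks and 17 (0 to 375) at 4 weeks. Il1r1KO against VF gave 23 (20 to 320), 7 (2 to 22) and 20 (1 to 403). Il1bKO against Il1r1KO gave 24 (18 to 166), Il1bKO against WT 6 (3 to 24), Il1r1KO against WT 8 (3 to 46) and the time dependence 2 (0 to 51) for Il1bKO and 0 (0 to 32) for Il1r1KO. Same-numbered samples showed no strong shared deviation (correlations -0.148 to 0.0799), which cannot settle whether the numbers mark pairs. With the replicate block 0 members were called in every genotype comparison, with 15 and 20 genes for the 2 knockouts. The block could not be fitted for 4 against 2 weeks, as numbers are nested in time. Under the filter of CPM 5 in 3 libraries Il1b is not tested. Il1b rests on few reads, and each group has 3 or 4 libraries.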
